A study of Mus musculus with 3 samples.

Results

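Border macrophage-like cells were taken from the CD45+ sort of mouse brains with EGFR-driven glioblastoma (GBM), and there were 415 of them among 11218 CD45+ cells that passed the filters, out of 20811 deposited cells of both sorts. A cell was a member when its unique molecular identifiers (UMIs, each marking 1 captured mRNA) for Mrc1, Cbr2, Pf4, Cd163 and Lyve1 summed to at least 4, those for P2ry12, Tmem119 and Gpr34 to at most 2, and those for S100a8 and S100a9 to under 30. These limits are called the gate. Every tumor came from adult mice of mixed background carrying a conditional transgene for wild-type human EGFR, constitutive Cdkn2a loss and a conditional luciferase reporter, in which a lentivirus encoding TGFa and iCre was injected into the brain. All groups shared these alleles and this virus, and by their labels they differed in the stage of growth (early, medium or large). Large is called late here. The stage labels name no bioluminescence limit, by which the study set its own early and late groups. Cells were sorted as viable CD45+ or CD45- after perfusion and encapsulated on the inDrop system, and each stage is 1 tumor sample split over 4 technical CD45+ libraries. Early samples of the study were pools of mice. Normal brain was not analysed here.

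Border-associated and perivascular macrophages are resident macrophages of the brain's edges, namely the meninges, the choroid plexus and the sheaths around vessels. They stand apart from microglia, the macrophages of the parenchyma, and from macrophages that enter a tumor from blood monocytes. They are known for endocytosis of fluid-borne proteins and glycans, through receptors such as the mannose receptor (Mrc1), the hemoglobin-haptoglobin receptor (Cd163) and the hyaluronan receptor (Lyve1), and for secreting chemokines. The data hold no positions, so macrophages of the meninges, vessels and choroid plexus cannot be told apart.

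Members were chosen by their UMIs of the gate markers, so the values of these genes are a description. The summed markers had a median of 9 UMIs per member and ranged from 4 to 67. Mrc1 was found in 95.4%, 75.9% and 97.1% of the early, medium and late members. Pf4, a platelet-factor chemokine, was found in 80.1%, 70.7% and 61.2% of them. Cbr2, a carbonyl reductase, was found in 64.8%, 44.0% and 32.0%. Cd163 was found in 35.2%, 21.6% and 14.6%, and Lyve1 in 26.0%, 12.1% and 9.71%. Among 414 T cell-like cells, which should lack these RNAs, shares ran from 0.483% for Lyve1 to 3.62% for Mrc1 at a median of 2044.5 UMIs, against 2117 UMIs in members. The classes overlapped, since 8 members also met the T cell-like limits and are counted in both. Of the members, 287 held no microglia marker UMI, 86 held 1 and 42 held 2. Tmem119, a microglia marker inside that allowance, had a UMI in 4.59%, 6.90% and 26.2% of early, medium and late members.

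At the edge of the gate, 62 cells with a marker sum of 3 had 777 UMIs per 1000000 UMIs (CPM) of Mrc1 and 182 CPM of F13a1. The 58 members with a sum of 4 had 1066 CPM of Mrc1 and 374 CPM of F13a1. A further 77 cells reached the border marker sum but exceeded the microglia limit, and 4 exceeded the neutrophil limit.

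**Figure D1:**
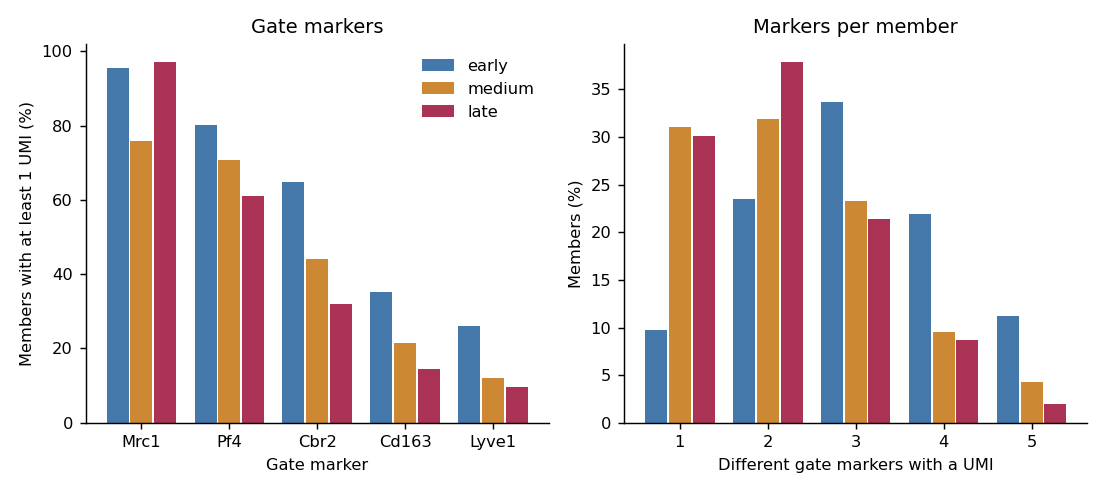
The left panel plots the percent of members with at least 1 UMI of each gate marker, and the right panel the percent of members by the number of different gate markers they held, with 1 bar per tumor stage (196 early, 116 medium and 103 late members). Except for Mrc1, each marker was found in fewer medium than early and fewer late than medium members, and members with 1 marker made up 9.69%, 31.0% and 30.1%.

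Members with several markers held more RNA of most border macrophage genes examined than the rest. Members with only 1 of the 5 markers numbered 19, 36 and 31 in the early, medium and late tumor. Members with Mrc1 alone made up 8.16%, 17.2% and 28.2%. Folr2, a folate receptor of resident macrophages, had 0, 24.4 and 0 CPM in members with 1 marker and 254, 236 and 147 CPM in those with at least 2. Fcna, a soluble ficolin of the lectin complement pathway, had 0 CPM in members with 1 marker in every tumor and 262, 149 and 201 CPM in the others. F13a1, the coagulation factor XIII A chain of resident macrophages, had 183, 415 and 143 CPM against 1354, 837 and 697 CPM. In each tumor these 3 border macrophage genes were lower in members with 1 marker, and so were Dab2, Cd209f, Cd209g and Clec10a. Mgl2, a lectin, was not, with 1166, 85.4 and 662 CPM against 487, 173 and 668 CPM, nor was Ms4a7, with 68.6, 256 and 336 CPM against 461, 245 and 417 CPM. Ccr2, the receptor that guides monocytes, had 434, 207 and 540 CPM in members with 1 marker and 55.6, 188 and 182 CPM in the others. H2-Aa, an MHC class II chain, had 22451, 16886 and 13706 CPM against 11804, 9688 and 5891 CPM. Both genes were higher in members with 1 marker in every tumor. Of other genes of infiltrating cells, Plac8 had 114, 48.8 and 71.3 CPM against 10.6, 125 and 34.4 CPM, and Ly6c2 68.6, 12.2 and 40.7 CPM against 7.95, 52.9 and 14.7 CPM, so that both were lower in the medium members with 1 marker. Lyz2, with 4733, 6393 and 4857 CPM against 5862, 6207 and 4247 CPM, differed in direction between tumors too, and Arg1 was higher only in the late members with 1 marker (703 against 270 CPM). Gene lists by stage are given below also for members with at least 2 markers.

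Members made up 3.84% of early CD45+ cells (196 of 5110, 95% interval 3.33 to 4.40), 2.91% of medium ones (116 of 3988, 2.41 to 3.48) and 4.86% of late ones (103 of 2120, 3.98 to 5.86). The intervals are exact Clopper-Pearson intervals and cover counting error only. Among the 4 early libraries shares ran from 3.52% to 4.22%. The 4 medium libraries spanned 2.47% to 3.51%, and the 4 late ones 0% to 5.07%, where the library at 0% held 17 cells. The medium share was the lowest in each run, whereas the late share was the highest in runs 2 (3.52%, 3.22% and 4.75%) and 3 (3.99%, 2.52% and 5.07%) but not in run 1 (4.20%, 2.47% and 3.70%). When each cell was thinned to 1000 UMIs before gating, shares were 2.89%, 1.41% and 2.29%, with 133, 8 and 72 shallower cells left out. With at least 2 different markers they were 3.46%, 2.01% and 3.40%. CD45+ libraries of the same stage shared a median of 5.33% of the barcodes of the smaller library (1.12% to 18.3%, the highest in a medium pair), against 1.10% (0.628% to 2.67%) between stages. The late libraries of 17 and 91 cells were left out of these values. The library of 17 cells shared 1 barcode (5.88%) each with the late libraries of 91 and 946 cells and with a medium library. That of 91 cells shared 5 (5.49%) and 1 (1.10%) with the late libraries of 946 and 1115 cells. It also shared 1 (1.10%) with a medium and with an early library. Shared barcodes may be the same cell counted more than once, which was not tested, and the intervals count each as a separate cell. With each barcode kept once per stage, which left out 564 cells and 19 members, the shares were 3.76%, 3.00% and 4.83%. The order of early and late turned with depth and with the gate, and no test between stages was possible with 1 sample each. Members had medians of 2048.5, 2107 and 2663 UMIs, so late members were the deepest.

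**Figure D2:**
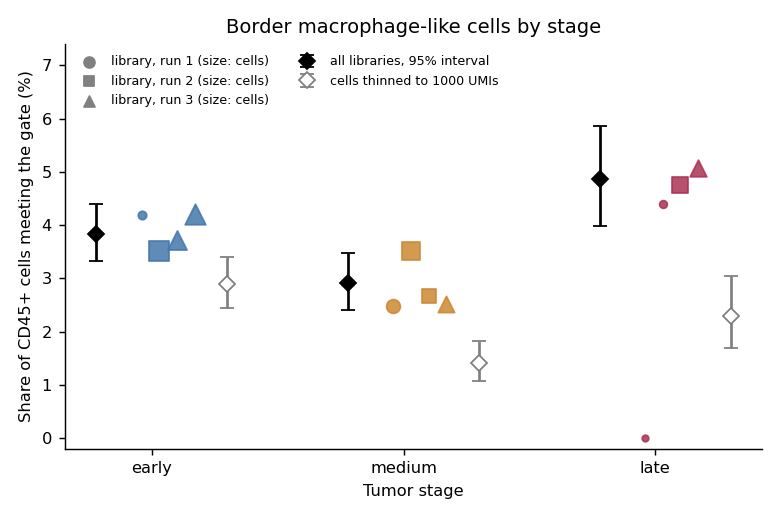
Share of CD45+ cells that met the gate (percent, vertical axis) by tumor stage. Filled diamonds are all libraries of a stage with exact 95% intervals, open diamonds the cells thinned to 1000 UMIs, and colored points the libraries, shaped by run and sized by cells. The medium share was the lowest in both settings, and the late tumor led before but not after thinning.

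Members were next compared with microglia-like cells, to ask which genes other than those of the gates set them apart. These 6117 cells had at least 3 UMIs of the 3 microglia markers, at most 1 of the border markers and under 30 of S100a8 and S100a9. UMIs were summed per tumor and class and tested with edgeR's quasi-likelihood test with the tumor as a block. The 3 tumors, each of another stage, served as replicates of the class difference. Of 10554 genes tested, 624 were higher in members (5.91%) and 627 lower (5.94%). Since both classes were cut by marker UMIs, the tests concern genes outside the gates in cells chosen this way. Without the early tumor 403 genes were higher.

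C-type lectins, receptors that bind glycans, led the genes higher in members. Clec10a (chromosome 11, 70156197 to 70170834, GRCm38), a galactose-type lectin, had 724, 397 and 301 CPM in early, medium and late members and 1.55, 2.92 and 1.13 CPM in microglia-like cells. Its log2 fold change was 8.21 (SE 0.34, edgeR adjusted p = 1.89e-08). Mgl2 (chromosome 11, 70130329 to 70137550), its neighboring paralog, had 558, 148 and 666 CPM against 4.05, 3.34 and 6.03 CPM (log2 fold change 6.71, SE 0.31, edgeR adjusted p = 2.74e-08). The ranges of the 2 classes did not overlap for either gene. A trio of further lectins of the DC-SIGN family were nearly absent from microglia-like cells. Cd209g (chromosome 8, 4134098 to 4137707) had 148 UMIs in members and 0 in microglia-like cells, which is at least 654-fold higher against a floor of 3 counts over the group. Cd209f (chromosome 8, 4102787 to 4105835) had 243 UMIs against 1, a ratio of 3223 (573 to 127820 by counting error). Cd209b had 67 UMIs against 1, a ratio of 889 (154 to 35618). These paralogs lie close together, and reads of near-identical copies may have been split between them. Of 18 lectins tested, 15 were higher, 2 were lower (Clec5a and Lgals9) and the median log2 fold change was 3.29, against -0.05 over all genes.

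Of 29 border macrophage genes tested, 23 were higher and 0 lower by edgeR, with a median log2 fold change of 3.76. F13a1 had 1232, 717 and 517 CPM in members and 20.3, 23.4 and 29.4 CPM in microglia-like cells (log2 fold change 5.07, SE 0.34, edgeR adjusted p = 1.27e-05). Folr2 (chromosome 7, 101839988 to 101857194) had 228, 176 and 99.4 CPM against 0.238, 3.34 and 2.64 CPM (6.86, SE 0.73, edgeR adjusted p = 0.00142). Fcna (chromosome 2, 25624666 to 25628030) had 171 UMIs against 1, a ratio of 2268 (402 to 90103). For these 3 genes each tumor's members lay above all microglia-like values. Dab2, an endocytic adaptor, had 1194, 641 and 798 CPM against 9.30, 26.7 and 63.7 CPM but did not pass the test (5.06, SE 1.03, edgeR adjusted p = 0.120). Ms4a7 was higher with 3.76 (SE 0.48, edgeR adjusted p = 0.00367), and Gas6, a bridging ligand for phagocytic receptors, with 1.94 (SE 0.21, edgeR adjusted p = 5.22e-05). Outside the list, Mmp9 (8.70, SE 0.51) and the growth factor Bmp2 (8.62, SE 0.57) were higher in members. Markers of infiltrating macrophages and monocytes were not lower either. Of 6 tested by edgeR 4 were higher in members (Ccr2, Plac8, Ms4a4c and Arg1) and 0 lower, with a median log2 fold change of 2.65.

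Of 15 microglia genes outside the gate, 14 were lower in members and 0 higher, with a median log2 fold change of -3.56, or -2.93 with Slc2a5, which had 0 UMIs in members, at its bound. The exception was Fcrls. Sall1 (chromosome 8, 89027235 to 89044162), the transcription factor of microglial identity, had 7.12, 3.45 and 3.31 CPM in members and 208, 145 and 206 CPM in microglia-like cells (-5.22, SE 0.37, edgeR adjusted p = 1.26e-06). Sparc (chromosome 11, 55394500 to 55423183), a matricellular protein, had 176, 183 and 291 CPM against 5167, 3501 and 4914 CPM (-4.37, SE 0.19, edgeR adjusted p = 1.89e-08). Cx3cr1, the fractalkine receptor, had 1280, 1069 and 1428 CPM against 5788, 4115 and 5139 CPM (-1.96, SE 0.15, edgeR adjusted p = 1.92e-06). In T cell-like cells, whose RNA of these genes may be free or their own, Cx3cr1 had 200, 497 and 227 CPM and Sall1 0, 1.99 and 0 CPM. The Cx3cr1 level of members lay above that of T cell-like cells in each tumor, and the part of free RNA in it was not tested. Adgrg1 (-5.11), Adamts1 (-5.05), Csmd3 (-4.58), Lag3 (-4.50), Slc1a3 (-4.12), Tjp1 (-4.11), Nav3 (-4.03) and Cd34 (-3.97) were the other named genes lower in members by log2 fold change. Tlr3, a sensor of double-stranded RNA, had 2 UMIs against 989 and was 37.3-fold lower. Siglecf had 2 UMIs against 690 and was 26.0-fold lower.

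The second comparison set members against 1304 infiltrating macrophage-like cells, which carried at least 4 UMIs of Lyz2, Ccr2, Plac8, Ms4a4c, Ly6c2, Ly6i and Arg1 and at most 1 of the border markers. They also had at most 2 microglia marker UMIs, under 30 of S100a8 and S100a9, at most 1 of lymphoid markers and none of dendritic ones. The comparison asks what set members apart from cells chosen by markers of infiltrating macrophages, whose origin from blood was not tested. Members held these markers too, with sums of 5937, 6815 and 5283 CPM against 11503, 8309 and 6652 CPM. Of 5223 genes tested, 138 were higher in members (2.64%) and 85 lower (1.63%). Without scaling factors (TMM) the split was 160 and 57. Without the tumor as a block 29 were higher and 8 lower.

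Ccl7 (chromosome 11, 82045712 to 82047525), a chemokine for monocytes, had 2668, 1259 and 904 CPM in members, 189, 74.4 and 49.4 CPM in infiltrating macrophage-like cells and 14.2, 8.34 and 16.2 CPM in microglia-like cells. Its log2 fold change was 3.94 against infiltrating macrophage-like cells (SE 0.17, edgeR adjusted p = 8.11e-13) and 6.93 against microglia-like cells (SE 0.36, edgeR adjusted p = 3.47e-06). Ccl24 (chromosome 5, 135569937 to 135573049), an eotaxin, had 366, 121 and 331 CPM in members and 0, 6.58 and 25.9 CPM in infiltrating macrophage-like cells (4.22, SE 0.43, edgeR adjusted p = 0.000128). Neither chemokine overlapped between the classes. Cd209f had 311, 248 and 132 CPM in members against 3.44, 1.52 and 0 CPM (7.13, SE 0.44, edgeR adjusted p = 5.09e-10). Cd209g had 148 UMIs against 1, a ratio of 450 (79.4 to 17874). Mmp9 (chromosome 2, 164940780 to 164955850), a matrix metalloproteinase, had 131 UMIs against 1, a ratio of 398 (70.2 to 15834). Fcna (6.28, SE 0.47), Folr2 (4.36, SE 0.42), Bmp2 (4.14, SE 0.47), Clec10a (3.42, SE 0.30), Olfr1564 (3.23, SE 0.62), Flrt3 (3.04, SE 0.60) and the secreted phospholipase Pla2g2d (2.96, SE 0.27) completed the named genes higher in members. Maf, a transcription factor of resident macrophages, had 961, 393 and 656 CPM against 162, 98.2 and 139 CPM (2.18, SE 0.20, edgeR adjusted p = 1.86e-07).

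Slpi (chromosome 2, 164354070 to 164389095), a secreted protease inhibitor, was the named gene with the largest deficit. It had 4.75, 6.90 and 3.31 CPM in members and 265, 42.5 and 237 CPM in infiltrating macrophage-like cells (-5.20, SE 0.49, edgeR adjusted p = 3.43e-07). Cxcl13 (chromosome 5, 95956951 to 95961068), a chemokine for B cells, had 30.9, 248 and 116 CPM against 561, 2067 and 668 CPM (-3.23, SE 0.24, edgeR adjusted p = 3.16e-07). Both genes were lower in members of every tumor, without overlap. Itgax, the CD11c integrin chain, had 26.1, 37.9 and 113 CPM against 169, 201 and 402 CPM (-2.30, SE 0.26, edgeR adjusted p = 4.67e-06). Chil3 (-3.40), Postn (-3.29), Cst7 (-3.11), Dpys (-2.94), Cxcl9 (-2.87), Cd34 (-2.41), Slc2a1 (-2.23), Csf1 (-2.22) and Serpine2 (-2.12) were lower as well. Cxcl9, an interferon-induced chemokine, had 45.1, 200 and 0 CPM against 544, 902 and 8.64 CPM, so that its classes overlapped across tumors although each tumor's members were lower. Of 11 microglia genes tested, 4 were lower in members here too, among them Sparc, Tgfbr1 and Ctss.

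**Figure D3:**
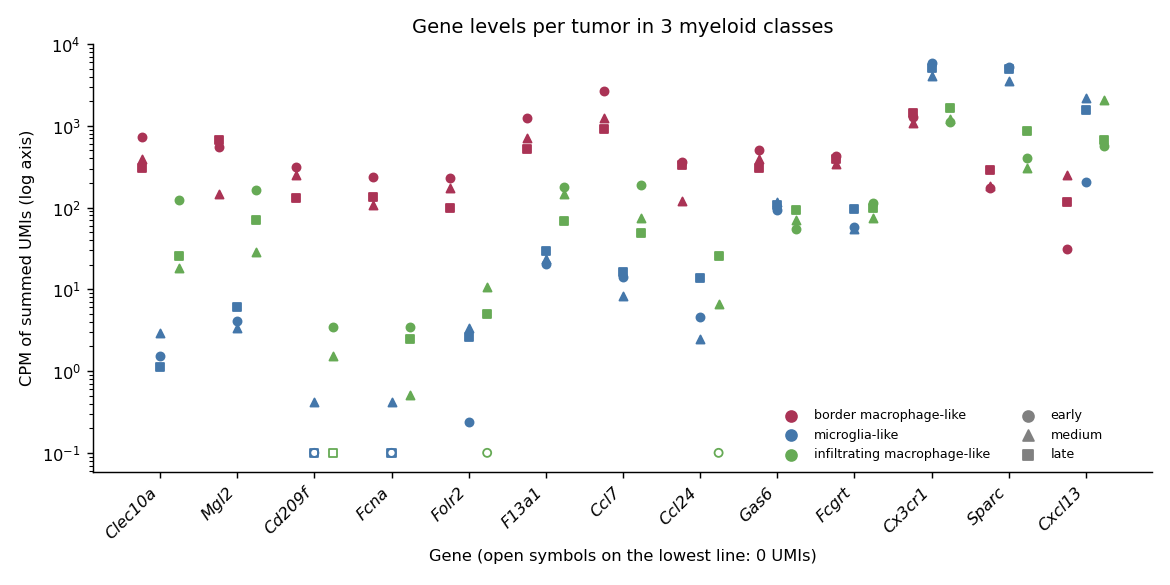
Level of 13 genes in the 3 classes (CPM of summed UMIs, log axis), with 1 symbol per tumor and open symbols on the lowest line for 0 UMIs. Clec10a to Fcgrt lay higher in members than in both other classes in each tumor, and Sparc and Cxcl13 lay lower in them.

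Bases before the start of transcription are shown for 3 genes that were higher in members than in both other classes, since their sequences show what the paralogs share. Of 8 such named genes, 4 were matched by symbol in the RefSeq promoter table (GRCm38.p6), and Folr2 is not printed because most of its coding transcripts start elsewhere. Each run ends before the first annotated exon of the coding transcripts (GENCODE M21). The stretch for Cd209g, chr8:4134486-4134651 on the plus strand, lies inside a non-coding transcript of that gene. The others are chr8:4105836-4106014 on the minus strand for Cd209f and chr2:25628031-25628224 on the minus strand for Fcna. Capitals mark TGCTGA, a short part of the element that MAF factors recognize.
Cd209g: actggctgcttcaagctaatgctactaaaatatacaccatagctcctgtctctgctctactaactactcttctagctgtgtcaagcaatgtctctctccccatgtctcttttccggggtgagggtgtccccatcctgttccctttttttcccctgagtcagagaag
Cd209f: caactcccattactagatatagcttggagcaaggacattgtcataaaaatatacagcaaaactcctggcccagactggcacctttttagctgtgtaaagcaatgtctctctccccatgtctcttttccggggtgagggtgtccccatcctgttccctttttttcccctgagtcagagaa
Fcna: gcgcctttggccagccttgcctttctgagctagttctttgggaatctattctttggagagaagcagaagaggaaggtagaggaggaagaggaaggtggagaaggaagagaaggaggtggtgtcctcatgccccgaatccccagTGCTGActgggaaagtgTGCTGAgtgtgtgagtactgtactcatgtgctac
The Cd209g and Cd209f stretches shared an identical run of 83 bases, whereas other pairs among the 4 genes shared runs of 7 to 9 bases. TGCTGA was found in Fcna at 107 and 90 and in Folr2, whose stretch is not printed, at 220 bases before the RefSeq start. Searched on both strands over 250 bases, it was held by 5282 of 32851 promoters (16.1%), and GAGGAAGT, a PU.1-type motif, by 802 (2.44%) and by none of the 4 genes. These matches describe letters only.

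Chemokines were the next group with many calls in both comparisons. Of 18 tested against microglia-like cells, 10 were higher and 3 lower (Ccl4, Cxcl10 and Cxcl13), with a median log2 fold change of 1.77. Of 17 tested against infiltrating macrophage-like cells, 8 were higher and 3 lower (Cxcl9, Cxcl13 and Cxcl16), with a median of 0.73. Ccl2, the principal monocyte attractant, had 2433, 1083 and 666 CPM in members, 99.2, 161 and 99.6 CPM in microglia-like cells and 255, 178 and 90.1 CPM in infiltrating macrophage-like cells. Its log2 fold changes were 3.41 (SE 0.50, edgeR adjusted p = 0.0175) and 2.82 (SE 0.18, edgeR adjusted p = 7.02e-10). The neutrophil attractants Cxcl1 (5.21, SE 0.74, and 2.70, SE 0.28) and Cxcl2 (4.10, SE 0.47, and 1.56, SE 0.18) were higher against both classes. Ccl8 (chromosome 11, 82115185 to 82116799) was higher than in microglia-like cells (7.78, SE 0.77, edgeR adjusted p = 0.0118), with 798, 1997 and 1431 CPM against 0.715, 17.5 and 9.05 CPM. That call was lost when every gene with a count was tested, or when members with a microglia marker UMI were left out.

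Uptake receptors and iron genes gave calls in both comparisons. Of 10 scavenger receptors 5 were higher than in microglia-like cells (Msr1, Cd36, Stab1, Colec12 and Cd14) and 2 lower, and 3 were higher (Msr1, Stab1 and Cd14) and 1 lower (Cxcl16) than in infiltrating macrophage-like cells. Stab1, a clearance receptor, had 368, 269 and 248 CPM in members, 147, 107 and 149 CPM in microglia-like cells and 65.4, 96.2 and 138 CPM in infiltrating macrophage-like cells. Of 13 iron and heme genes 7 were higher than in microglia-like cells and 1 lower, among them the heme oxygenase Hmox1 (log2 fold change 1.23). The biliverdin reductase Blvrb (2.29 and 0.93) and transferrin, Trf (1.06 and 0.64), were higher against both classes, the only 2 of 10 iron and heme genes higher than in infiltrating macrophage-like cells, where the ferritin chain Fth1 was lower. The neonatal Fc receptor Fcgrt had 425, 338 and 391 CPM in members, 57.1, 54.7 and 96.5 CPM in microglia-like cells and 114, 73.9 and 97.5 CPM in infiltrating macrophage-like cells. Its log2 fold changes were 2.55 (SE 0.22, edgeR adjusted p = 6.15e-06) and 1.96 (SE 0.21, edgeR adjusted p = 2.00e-06). Fcgr2b, the inhibitory Fc receptor, was the other Fc receptor higher against both (1.55 and 1.35).

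Of 13 complement genes 4 were higher than in microglia-like cells and 1 lower, and of 11 tested against infiltrating macrophage-like cells 4 were higher and 2 lower. Properdin, Cfp, had 116, 124 and 205 CPM in members, 1.67, 5.84 and 5.66 CPM in microglia-like cells and 48.2, 58.2 and 74.0 CPM in infiltrating macrophage-like cells. The anaphylatoxin receptor C5ar1 was higher against both classes (2.52 and 2.38). C3 was higher than in microglia-like cells (2.24) and lower than in infiltrating macrophage-like cells (-1.39). MHC class II genes gave 1 call in each direction among 9 against microglia-like cells (Ciita higher, H2-Oa lower) and 0 among 8 against infiltrating macrophage-like cells by edgeR. H2-Aa had 12910, 11723 and 8433 CPM in members, 801, 7042 and 1413 CPM in microglia-like cells and 12080, 17970 and 9307 CPM in infiltrating macrophage-like cells. Of 15 lipid genes 6 were higher than in microglia-like cells and 1 lower, and Apoe, the main apolipoprotein of the brain, had 16497, 22531 and 37894 CPM against 2437, 6109 and 11440 CPM (2.15, SE 0.19, edgeR adjusted p = 2.03e-05). Against infiltrating macrophage-like cells no lipid gene was higher and 1 (Ch25h) was lower.

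Among 19 transcription factors 6 were higher and 7 lower than in microglia-like cells, and of 16 tested 5 were higher and 1 lower than in infiltrating macrophage-like cells. Klf4, Klf2 and Klf6 were higher against both classes, Klf4 with 1325, 914 and 1037 CPM in members, 343, 231 and 404 CPM in microglia-like cells and 791, 447 and 432 CPM in infiltrating macrophage-like cells. Of 20 immediate-early genes, which respond within minutes to stimulation and to tissue dissociation, 14 were higher and 0 lower than in infiltrating macrophage-like cells (edgeR, median 0.63), and 7 were higher and 5 lower than in microglia-like cells. Of 9 heat shock genes 4 were higher than in infiltrating macrophage-like cells. The part of dissociation in these values was not tested. Of 12 hypoxia and glycolysis genes 4 were lower than in infiltrating macrophage-like cells (Slc2a1, Aldoa, Tpi1 and Gapdh). The study's own M1-like and M2-like lists gave 1 higher and 2 lower of 11, and 6 higher and 1 lower of 18, against microglia-like cells, and 0 and 1 of 8, and 4 and 1 of 15, against infiltrating macrophage-like cells. The study took those lists from earlier work and scored clusters of its samples with them. The counts here are thus no independent check of its scores. Of 24 interferon-stimulated genes 8 were higher and 1 lower than in microglia-like cells, and 1 was higher and 1 lower of 20 against infiltrating macrophage-like cells. Of 18 lysosomal genes 2 were higher and 3 lower, and 0 and 4, respectively. Of 12 checkpoint genes 1 was higher than in microglia-like cells and 5 were lower, including Havcr2 (-2.37) and Vsir (-1.67), and 1 of 9 was lower than in infiltrating macrophage-like cells (Havcr2, -1.50).

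Members also varied among themselves. Lyve1 marks a resident subset of border macrophages that is known to be low in MHC class II. Members with at least 1 Lyve1 UMI numbered 51, 14 and 10 in the early, medium and late tumor, against 145, 102 and 93 without. Of 3149 genes tested between them over the 3 tumors, 12 were higher in Lyve1-positive members (0.381%) and 7 lower (0.222%). DESeq2 called 2 higher and 0 lower (90 genes at an unadjusted p under 0.05), and edgeR without the tumor as a block 1 and 0 (168 genes), so every lower call, the MHC class II genes included, was lost under both. A cell without a Lyve1 UMI may still hold the RNA. Because Lyve1 is a gate marker, the split also separates members by their number of markers: Lyve1-positive members held 2 to 5 different markers and Lyve1-negative members 1 to 4, among them all 86 members with 1 marker. The comparison therefore cannot tell Lyve1 apart from the number of markers, and the genes tested exclude the 5 gate markers.

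Fcna had 527, 764 and 790 CPM in Lyve1-positive and 119, 19.5 and 82.4 CPM in Lyve1-negative members (3.19, SE 0.41, edgeR adjusted p = 3.85e-07). Ccl7 had 4174, 3054 and 2283 CPM against 2072, 1020 and 792 CPM (1.30, SE 0.20, edgeR adjusted p = 1.07e-05). Neither gene overlapped between the states. Folr2 had 443, 382 and 483 CPM against 143, 148 and 68.1 CPM (1.80, SE 0.41, edgeR adjusted p = 0.00881). Mmp9 (2.35), Cebpd (1.94), Cd209f (1.55), Ccl2 (1.14), Jun (1.05), Marcksl1 (1.02) and Klf4 (0.94) were other named genes higher in Lyve1-positive members. Rnase2a (2.53) was called too, but 57 of its UMIs in Lyve1-positive members came from the late tumor, against 1 early and 2 medium UMIs. Among members with at least 2 markers 5 genes were higher and 1 lower, and of the genes named up to here Fcna, Mmp9, Cebpd and Ccl7 were still called. Of 7 MHC class II genes tested 4 were lower (H2-Aa, H2-Ab1, H2-Eb1 and Cd74) and 0 higher by edgeR, with a median of -0.89 against -0.06 over all genes, but none of these 4 was called among members with at least 2 markers (H2-Aa -0.62, edgeR adjusted p = 0.412). H2-Aa (chromosome 17, 34282744 to 34287823) had 6700, 6432 and 5928 CPM against 15370, 12427 and 8638 CPM (-0.96, SE 0.17, edgeR adjusted p = 0.000114). Lpl (-2.43) and Cd52 (-1.90) were lower too. So was Ttr, a choroid plexus RNA (-2.54), of which 1 early member held 164 of 199 early UMIs. Per cell, MHC class II UMIs made up a median of 1.88%, 0.839% and 1.44% of a Lyve1-positive member's UMIs and 4.94%, 3.41% and 1.98% of a Lyve1-negative member's. The states overlapped widely in single cells, with ranges of 0% to 7.07% and 0% to 12.7%. Without the early tumor 6 genes were higher, and without the late tumor 5.

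**Figure D4:**
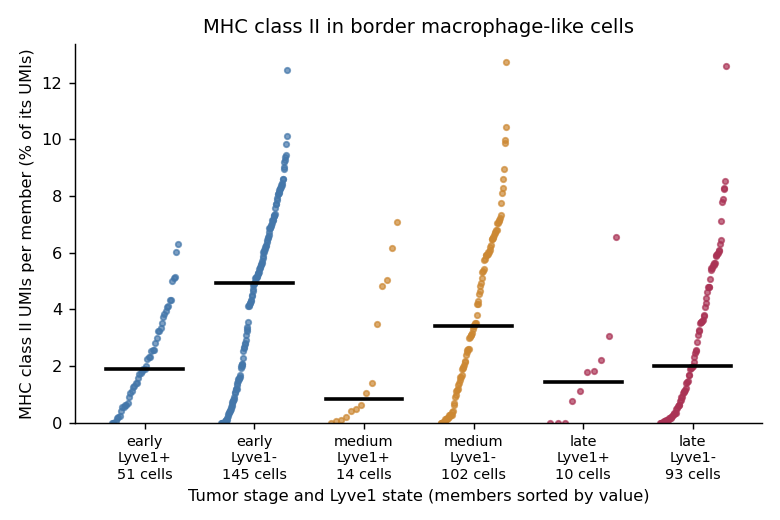
MHC class II UMIs of each member (percent of its UMIs, vertical axis) by tumor stage and Lyve1 state, with members sorted by value and black lines for medians. The medians were lower in Lyve1-positive members of each tumor, and the states overlapped.

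Stages were compared within the members to ask how their RNA levels differed with tumor growth. Each stage holds 1 tumor sample, so no test was made. Summed UMIs were compared as log2 ratios of CPM with a prior of 0.5 counts for genes with at least 20 UMIs over both stages, and genes are called higher or lower at a log2 ratio of at least 1 in size. Of 5402 genes, 667 were higher (12.3%) and 534 lower (9.89%) in late than in early members, with a median log2 ratio of 0.11. Of 5211 genes, 546 were higher (10.5%) and 480 lower (9.21%) in medium than in early members, with a median of 0.03. In microglia-like cells 5.18% of 14641 genes were higher and 3.52% lower in late than in early cells, and in infiltrating macrophage-like cells 15.5% and 9.49% of 6888. For medium against early cells the shares were 5.87% and 6.26% of 14499 genes in microglia-like cells and 12.5% and 9.42% of 9160 in infiltrating macrophage-like cells. Members held 421233, 289951 and 301895 UMIs in the early, medium and late tumor. Summed levels cannot tell a change within cells from a change in which cells met the gate.

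Glycolytic genes were higher in both later stages. Of 10 hypoxia and glycolysis genes 9 were higher and 0 lower in late than in early members, with a median log2 ratio of 1.46, and 10 of 11 were higher in medium members, with a median of 1.65. Gapdh had 408, 1297 and 1126 CPM in early, medium and late members, a late to early log2 ratio of 1.46 (interval 1.19 to 1.74). Eno1, enolase, had 97.3, 307 and 441 CPM, a ratio of 2.17 (1.66 to 2.72). Pkm, pyruvate kinase, had 188, 652 and 639 CPM, a ratio of 1.76 (1.38 to 2.17). Early members had the lowest level of each. The list's late to early median was 0.25 in microglia-like cells, with 1 of 17 genes higher, and 0.60 in infiltrating macrophage-like cells, with 2 of 15 higher. Within runs 2 and 3 the members' median was 1.56 and 1.41, and with at least 2 markers it was 1.58, with 9 of 10 higher. Gapdh was found in 45.9%, 70.7% and 78.6% of early, medium and late members, and with cells thinned to 1000 UMIs the list's late to early median was 1.44.

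Interferon-stimulated genes were lower in late members. Of 16 genes 0 were higher and 11 lower than in early members, with a median log2 ratio of -2.10. The median was -1.65 and -2.33 within runs 2 and 3, and -1.70 with at least 2 markers. Iigp1, an interferon-induced GTPase, had 598, 441 and 3.31 CPM, a late to early log2 ratio of -6.91 (-12.81 to -5.01). It was found in 56 of 196 early, 35 of 116 medium and 1 of 103 late members. Gbp2 had 178, 79.3 and 6.62 CPM and Gbp3 had 121, 20.7 and 6.62 CPM, ratios of -4.44 and -3.88. Isg15 had 135, 255 and 39.7 CPM, with ratios of 0.44 in run 2 and -2.52 in run 3, so its direction differed between runs. The same list had a late to early median of -0.32 in microglia-like cells and -2.83 in infiltrating macrophage-like cells, where 12 of 15 were lower. In medium members 5 of 21 were higher and 2 lower (median 0.19), whereas 16 of 24 were higher in microglia-like cells (median 1.61). Ifi44l, with 0, 34 and 0 UMIs in early, medium and late members, was at least 16.5-fold higher in the medium than in the early members. It was listed in medium cells alone in the other classes as well, with 0, 35.9 and 0 CPM in microglia-like cells and 0, 107 and 0 CPM in infiltrating macrophage-like cells.

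**Figure D5:**
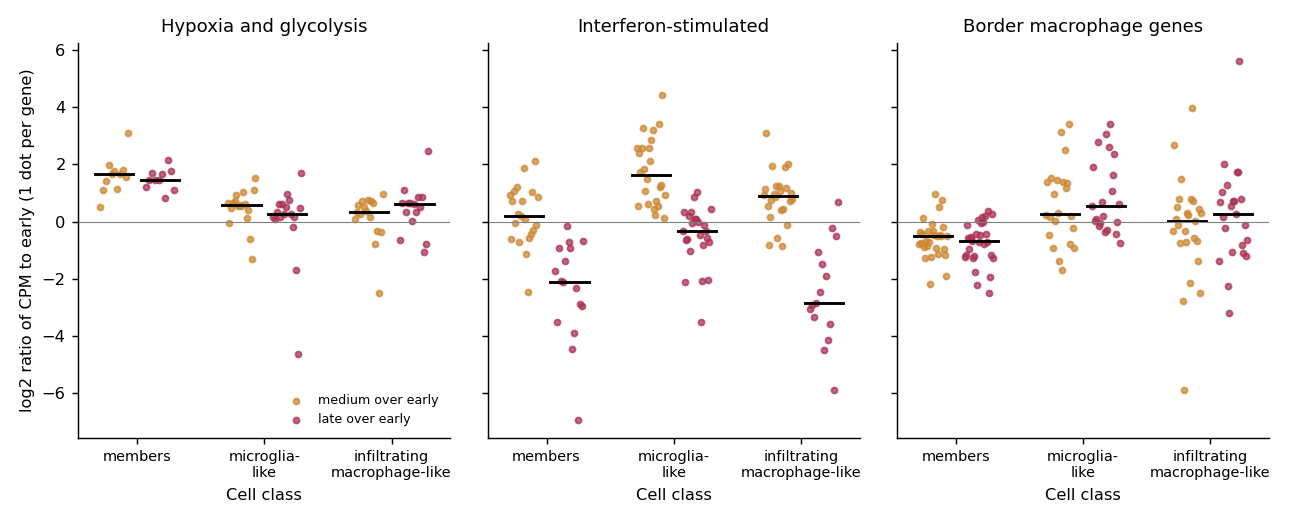
Log2 ratio of CPM to the early tumor for each gene of 3 lists (1 dot per gene with at least 20 UMIs over both stages, black lines for medians), in members, microglia-like cells and infiltrating macrophage-like cells. Hypoxia and glycolysis genes lay above 0 in members at both stages, interferon-stimulated genes lay below 0 in late members and mostly so in late infiltrating macrophage-like cells, and border macrophage genes lay mostly below 0 in members.

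The named genes farthest above the early level in late members were Arg1, Retnla, Rnase2a, Spp1, Lpl, Fn1, Tgm2 and Acp5. Arg1 (chromosome 10, 24915221 to 24927484), arginase, had 0, 110 and 411 CPM, at least 57.7-fold higher in late and 15.5-fold in medium members. Retnla (chromosome 16, 48842551 to 48844461), a resistin-like protein, had 66.5, 203 and 4353 CPM (log2 ratio 6.01, 5.49 to 6.63), where the 28 early UMIs lay in 2 of 196 members. Rnase2a had 7.12, 6.90 and 560 CPM (6.08, 4.72 to 8.59). These 3 genes were highest in late members. Spp1 (chromosome 5, 104435118 to 104441050), osteopontin, had 14.2, 583 and 543 CPM (5.14, 4.10 to 6.72). Lpl, lipoprotein lipase, had 11.9, 835 and 424 CPM (5.03), and Fn1, fibronectin, 11.9, 214 and 341 CPM (4.71). Tgm2 had 26.1, 352 and 566 CPM (4.38). The other classes held more of these RNAs in the late tumor too. In microglia-like cells the late to early log2 ratios were 4.88 for Spp1, 4.53 for Fn1, 3.73 for Retnla, 2.46 for Lpl and 0.26 for Tgm2, and in infiltrating macrophage-like cells 1.11, 0.77, 2.65, 0.84 and 2.09. Arg1 had 0, 10.4 and 68.3 CPM in microglia-like cells and 0, 24.8 and 804 CPM in infiltrating macrophage-like cells. Lpl was found in 2.55%, 28.4% and 30.1% of early, medium and late members, and in 3.92%, 7.32% and 3.57% of T cell-like cells. Spp1 was found in 14.7% of medium members and 14.1% of medium T cell-like cells, so its medium share is at the background, whereas the late shares were 28.2% and 3.57%. Acp5 had 2.37, 72.4 and 142 CPM (5.34), but T cell-like cells had 85.9 CPM in the early tumor, above the members.

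These RNAs were not evenly spread. In the late tumor Arg1 was found in 29 of 103 members, Retnla in 37 and Rnase2a in 38, of which 23 held both of the last. The most UMIs in 1 late member were 304 of 1314 for Retnla and 28 of 124 for Arg1, each gene taken by itself. Retnla had 713 CPM in late members with 1 marker and 6107 CPM in those with more, whereas Arg1 had 703 and 270 CPM and Fn1 682 and 177 CPM. Of the 47 late members with F13a1, 13 held Retnla and 8 held Arg1. Infiltrating macrophage-like cells of the late tumor had 804 CPM of Arg1, 982 CPM of Retnla, 502 CPM of Rnase2a and 1589 CPM of Spp1, and T cell-like cells had 0, 6.87, 13.7 and 27.5 CPM. Arg1 is one of the genes that chose the infiltrating macrophage-like cells. Late members thus held more Retnla RNA than late infiltrating macrophage-like cells, a similar level of Rnase2a, and less Spp1, with no test in 1 tumor.

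Of 13 lipid genes 8 were higher and 0 lower in late than in early members (median log2 ratio 1.11, and 6 of 12 higher with a median of 0.99 with at least 2 markers), among them Apoe (1.20), the fatty acid carrier Fabp5 with 61.7, 283 and 401 CPM (2.68), Apoc1 with 9.50, 17.2 and 136 CPM (3.69) and Trem2 with 254, 386 and 550 CPM (1.11). The medians were 1.04 in microglia-like and 1.02 in infiltrating macrophage-like cells, each with 8 of 15 higher. Of 17 lysosomal genes 4 were higher, 0 were lower and the rest did not reach the threshold (median 0.35, and 0.41 with 4 of 17 higher with at least 2 markers), beside 12.3% of all genes higher. Ctsd, cathepsin D, had 1346, 4370 and 6443 CPM (2.26, 2.12 to 2.40), against 0.31 in microglia-like cells. Its level in members was lowest in the early and highest in the late tumor. T cell-like cells had 740, 2733 and 1134 CPM of Ctsd, and the part of free RNA in members was not tested. Igf1, a growth factor, had 154, 193 and 593 CPM (1.94). Of 8 cell cycle genes 5 were higher in late and of 10 genes 7 in medium members, but with at least 2 markers it was 1 of 4 in late (median 0.18) and 6 of 8 in medium members.

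Chemokines went in both directions in late members. Of 16 chemokines 8 were lower and 3 higher (median -0.87), the latter being Ccl6 (1.12), Cxcl13 (1.88) and Cxcl14 (2.67), and with at least 2 markers 6 of 15 were lower and 3 higher (median -0.65). Ccl2 had a late to early log2 ratio of -1.87 (-2.10 to -1.65), Ccl7 of -1.56, Cxcl2 of -1.77 and Ccl3, with 1216, 762 and 295 CPM, of -2.04. Ccl8 went the other way below the threshold (0.84). In microglia-like cells Ccl2, Ccl7 and Cxcl2 had ratios of 0.01, 0.20 and 0.32, and in infiltrating macrophage-like cells -1.50, -1.93 and -0.72. Of 10 inflammatory genes 0 were higher and 7 lower (median -1.20), as with at least 2 markers (0 and 7 of 10, median -1.30). Tnf had 223, 75.9 and 53.0 CPM, Ptgs2, the inducible cyclooxygenase, 387, 252 and 103 CPM, and Cd83 3684, 2080 and 1497 CPM. Il10, an anti-inflammatory cytokine, had 119, 89.7 and 3.31 CPM (-4.59), and 16, 7 and 1 members held it, at 117 CPM in late T cell-like cells. Each of these 4 was lowest in the late tumor. Of 10 heat shock genes 5 were lower and 1 higher in late members, Hspa1a with 1265, 238 and 136 CPM (-3.20) and Hspa1b with 881, 207 and 69.6 CPM (-3.63). With at least 2 markers 4 were lower and 2 higher. Heat shock RNAs move with handling, and their part in the other stage differences was not tested.

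Some border macrophage genes were lower in later members. Of 29 genes 0 were higher and 10 lower in late than in early members (median -0.68), and 6 were lower in medium members (median -0.52). F13a1 had a log2 ratio of -1.25 (-1.52 to -0.99), with -0.64 and -1.52 within runs 2 and 3. Clec10a had -1.26, and Colec12, a collectin scavenger receptor, had 477, 200 and 103 CPM (-2.20). Timd4, a receptor for dying cells, had 64.1, 55.2 and 9.94 CPM. With at least 2 markers, 1 of 29 was higher and 4 were lower in late members (median -0.47), beside 420 of 4570 genes lower over all, which is near the background share. In medium members it was 0 higher and 5 lower of 28 (median -0.58), beside 432 of 4503 genes lower over all. Among late microglia-like cells 8 of 21 were higher and 0 lower, and among late infiltrating macrophage-like cells 6 of 23 were higher and 6 lower. Some genes that chose the infiltrating macrophage-like cells went the other way in members. Of 5 such genes 3 were higher (Ccr2, Plac8 and Arg1) and 0 lower in late than in early members (median 1.09). In medium members the same 3 were higher and 0 lower (median 1.02). With at least 2 markers Ccr2 had 55.6, 188 and 182 CPM and Plac8 10.6, 125 and 34.4 CPM. Whether other cells met the gate more often in the later tumors was not tested. MHC class II genes gave no call among 8 in either later stage, but with at least 2 markers 2 of 7 were lower in late members (median -0.62), and 9 of 9 were higher in medium microglia-like cells.

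Some stage differences rested on single cells or on RNA of other cell types, and some were found in the other classes too. Ttr, the choroid plexus transport protein, had 472, 69.0 and 0 CPM, but 164 of 199 early UMIs and all 20 medium UMIs lay in 1 member each. Enpp2 had 87.8, 10.3 and 0 CPM, with 28 of 37 early UMIs in 1 member. AI506816 (11.9, 390 and 3.31 CPM) and Apobec3 (21.4, 404 and 36.4 CPM) were high in medium members. The most UMIs in 1 medium member were 88 of 113 for AI506816 and 88 of 117 for Apobec3. Both genes were also higher in medium than in early microglia-like cells, with log2 ratios of 4.99 and 3.85. In infiltrating macrophage-like cells the ratios were 5.28 and 3.90. Medium T cell-like cells held them in 12.2% and 17.6% of cells against 16.4% and 17.2% of members. Ids, Epb41l5, Syap1, Cd55 and Ebi3 were the other named genes lower in medium members, and each had at most 1 UMI there. Their early UMIs were spread over 16, 17, 12, 13 and 22 of 196 members.

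Over the whole series, 24 libraries in 3 runs held the cells, 11218 of 11720 CD45+ cells passed the filters, and library medians ran from 1747 to 3629 UMIs. Of 18335 barcodes 2117 occurred in more than 1 library, and 13 members shared a barcode with another member of their stage. Markers of other cells were summed in members. A gene named below at 0 is 1 of its list, and other genes of the list made up the sum. Neutrophil markers summed to 154, 121 and 139 CPM, with Camp and Ly6g at 0, T and NK cell markers to 214, 110 and 49.7 CPM, against 4993, 4318 and 3793 CPM in T cell-like cells, with Cd3e at 0, and B cell markers to 335, 293 and 222 CPM, with Cd79a and Pax5 at 0. Dendritic cell markers summed to 240, 114 and 146 CPM (Clec9a at 0), endothelial ones to 64.1, 69.0 and 149 CPM (Cldn5 at 0), mural and fibroblast ones to 80.7, 41.4 and 13.2 CPM (Acta2 at 0), oligodendrocyte ones to 261, 72.4 and 92.7 CPM, glioma ones to 26.1, 27.6 and 23.2 CPM, ependymal and choroid plexus ones to 582, 117 and 19.9 CPM and red cell ones to 30.9, 0 and 0 CPM. Microglia-like cells had 59.1, 144 and 65.2 CPM of T and NK cell markers. Their dendritic markers summed to 1582, 1174 and 1335 CPM and ependymal and choroid plexus ones to 361, 41.7 and 74.3 CPM. In infiltrating macrophage-like cells the sums were 61.9, 34.4 and 21.0 CPM, 103, 61.2 and 13.6 CPM, and 89.5, 24.8 and 25.9 CPM. Their gate capped lymphoid and dendritic markers. The dendritic list holds Siglech, counted among the microglia genes above and lower in members than in microglia-like cells. It also holds Cd209a, counted among the border macrophage genes and higher in members. The T and NK cell list holds Cd4, which was higher in members than in microglia-like cells too. Ttr was higher in members than in infiltrating macrophage-like cells by edgeR (log2 fold change 3.04). Xist had 173, 3.45 and 0 CPM and Ddx3y 97.3, 86.2 and 129 CPM in early, medium and late members, so the early sample held RNA of both sexes and the stage and the sex of its mice cannot be told apart.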

How the data were processed

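Whole-number UMI counts per gene and cell were deposited by the authors, who aligned inDrop reads with RapMap in bcbio-nextgen to the mouse GRCm38 transcriptome with added transgenes (the submitters' processing notes name mm10) and called cell barcodes against empty droplets. The methods state that ambient RNA and doublets were removed, but not whether this preceded the deposited table. The deposited cell annotation, used as other labels, gave each cell's library, stage and sort. Of 50262 genes 50150 had a symbol.

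CD45+ cells with at least 500 UMIs, 500 genes and at most 20% mitochondrial UMIs were kept. Scrublet (scanpy 1.11.5) marked 33 of 11110 cells and was not relied on. UMIs were summed per tumor and class and tested, two-sided, with edgeR 4.0.16 in R 4.3.3 (quasi-likelihood, TMM, filterByExpr, tumor as block, Benjamini-Hochberg, threshold 0.05), with gate genes removed before adjustment. The classes of a tumor come from the same sample, and their deviations correlated at 0.22 to 0.26 (microglia-like) and 0.31 to 0.42 (infiltrating macrophage-like). The tumors are separate samples, 1 per stage, and early samples were pooled mice. The p-values thus measure how a class difference varied over 3 samples of different stages, where sample and stage cannot be told apart. Median depth per CD45+ library was 1747 to 3629 UMIs per cell. Stage values are ratios without a test, with intervals that cover counting error only.

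Named genes were the 12 per direction and contrast with the largest change among those with adjusted p under 0.05, the same direction in 3 tumors and at least 50 CPM in the higher class, 8 per direction for stages by the interval bound nearest 0, and members of the listed gene groups. Gate, mitochondrial, ribosomal, receptor-locus, red cell, granule, sex and unnamed genes were skipped. The members and lists were chosen with earlier results of these data known. The scripts were tested on simulated data, where genes changed by a log2 of 2 were recovered in 76.5%, 96.8% and 68.1% of cases (against microglia-like, infiltrating macrophage-like and Lyve1-negative cells, over 9979, 4818 and 2792 genes), and by a log2 of 1 in 28.9%, 55.3% and 19.1%. The simulated counts came from 1 pooled profile without differences between tumors. These shares therefore do not measure recovery where tumors differ, as they do here. Alternatives were DESeq2 1.42.0, other filters and scaling, other gates, thinning, single runs and left-out tumors or libraries. Some genes and alleles are not reported here.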

Additional observations from a re-analysis of the deposited data

Results flagged for a closer look

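One late CD45+ library held 0 members among its 17 cells, a share of 0%, which lies apart from the 4.40%, 4.75% and 5.07% of the other late libraries (gap over range 0.867). Its exact 95% interval reaches 19.5%, and its cells had a median of 3629 UMIs. Chance sets about 1 in 20 groups apart in this way. Without that library the late share was 4.90%.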

How the results depend on the processing

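Against microglia-like cells the counts stayed within 1.5 times of 624 higher and 627 lower except for 992 lower when every gene with a count was tested and 403 higher without the early tumor. DESeq2 called 540 and 431 genes, and the fit without the replicate block 435 and 512. Against infiltrating macrophage-like cells the fit without the replicate block called 29 higher and 8 lower, DESeq2 99 and 30, testing every gene 196 lower, members without a microglia UMI 55 lower, and doublet removal 48 lower. Between Lyve1 states DESeq2 called 2 higher and 0 lower (90 genes at an unadjusted p under 0.05, against 213 by edgeR), every gene 1 and 11, no replicate block 1 and 0, at least 2 markers 5 and 1, and thinning 3 and 2. These counts are small and moved with most settings.

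Leaving out each tumor gave 403 to 600 higher and 466 to 648 lower against microglia-like cells, 111 to 137 and 66 to 76 against infiltrating macrophage-like cells, and 5 to 11 and 5 to 6 between Lyve1 states. Leaving out each library gave shares of 3.64% to 4.00%, 2.55% to 3.05% and 4.64% to 4.95% (early, medium, late), 575 to 673 higher and 430 to 651 lower genes in late, and 412 to 564 and 363 to 524 in medium members.

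The early, medium and late shares were 3.19%, 2.01% and 3.21% with at least 6 marker UMIs, 2.62%, 2.31% and 2.88% with no microglia UMI, and 2.89%, 1.41% and 2.29% when thinned. With at least 2 markers the medium and late shares were 2.01% and 3.40%. The late share was 6.08% with at least 3 marker UMIs and 3.70% in run 1. Stage counts fell to 277 higher and 259 lower (late) and 222 and 222 (medium) when thinned, to 312 and 290 (late) and 267 lower (medium) in run 2, and to 278 higher (medium) in run 3. Fewer UMIs entered each of these.

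Of values for named genes, 334 of 336 kept their call against microglia-like cells and 300 of 324 against infiltrating macrophage-like cells. Between Lyve1 states 88 of 182 did. For stages, 244 of 256 late and 253 of 272 medium values stayed inside the main interval of their log2 ratio. A value outside it may still be called, as late Retnla was within run 3 with a log2 ratio of 11.05. In all of these sets 0 reversed. AI506816 and Apobec3 left their medium interval without doublets or without 1 medium library. Alternatives with at least 2 markers or each barcode once were chosen after seeing the data. At these depths genes under about 50 CPM in members rest on few UMIs.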

Other observations

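Cells of the CD45- sort met the same limits in 2 of 2760 early cells (0.0725%) and 2 of 1617 medium cells (0.124%). In the late CD45- sort it was 0 of 2299 cells, which allows a share of up to 0.130%.

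Late members differed in which of 5 RNAs they held together. Lpl, the lipoprotein lipase, and Spp1, osteopontin, were found in 31 and 29 of 103 late members and together in 17. Arg1 and Spp1 were found together in 13, as were Retnla and Spp1. Folr2 was found in 18 late members, of which 9 held Retnla.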
